A study of Mus musculus with 6 samples.

Results

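The miR-29 family was followed through its 3 mature 3p arms, miR-29a-3p, miR-29b-3p and miR-29c-3p. They were picked by name, with earlier results of these data known, and make up 3 of the 1960 mature mouse miRNAs in the deposited table. The table holds raw counts from 6 small RNA libraries of liver-infiltrating immune cells, taken from wildtype female C57BL/6J mice of 10 weeks, with 2 libraries in each of 3 groups. In the ConA+D8THC group, the cannabinoid D8THC (delta-8-tetrahydrocannabinol) was injected intraperitoneally at 20 mg/kg in a 100 µL volume, 15 to 18 h ahead of concanavalin A (ConA) and once more 30 min later. ConA is a lectin from jack beans whose injection drives T cells to damage the mouse liver, and 12.5 mg/kg was given retro-orbitally under isoflurane. The ConA+Vehicle group had the same ConA dose with the carrier of D8THC, DMSO in corn oil, and the Vehicle group had this carrier and no hepatitis. Neither the hour of tissue collection nor the number of mice behind each library was given in the sources used here, so p-values measure the spread between libraries that the labels call biological replicates.

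miR-29 is a miRNA family known for restraint of the T helper 1 programme and of extracellular matrix production. In mouse T cells it represses interferon-gamma and the transcription factors T-bet and Eomes, and in liver it represses collagen messages and falls in stellate cells as they become matrix-producing myofibroblasts. A miRNA guides Argonaute to messages mainly through its seed, bases 2 to 8, while the opposite arm of the hairpin, here the 5p arm, is mostly degraded. No messenger RNA was measured, so none of these targets is read here.

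The 3 arms are shown because they share a seed and differ so little that they bear on how reads can be told apart. RefSeq (GRCm38.p6) held all 7 mature sequences of the family, and capitals mark the seed in each.
miR-29a-3p: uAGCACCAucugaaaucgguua
miR-29b-3p: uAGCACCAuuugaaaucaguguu
miR-29c-3p: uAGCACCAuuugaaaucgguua
The seed AGCACCA was carried by 3 of the 1679 mature miRNA names in that reference, the members themselves, and the first 9 bases were identical in all 3. Counted from 1 at the 5′ end, miR-29c-3p differed from miR-29a-3p by the single substitution C10U, with the other 21 of 22 bases identical. miR-29b-3p differed from miR-29c-3p by G18A, U21G and A22U and by 1 extra base at its 3′ end. It ended in AGUGUU, a hexamer known in human cells as a nuclear import signal of miR-29b, which 2 of the 1679 mature names (0.119%) had at their end on the mature strand. A read with 1 error at base 10 can thus pass between miR-29a-3p and miR-29c-3p, and the assignment of such reads was not given in the sources used here.

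In build GRCm38 (mm10), the hairpins Mir29a (31062660 to 31062747) and Mir29b-1 (31063023 to 31063093) lie 275 bases apart on the minus strand of chromosome 6. Mir29a overlaps no other GENCODE gene, and Mir29b-1 shares 2 bases with an exon of the long noncoding RNA Gm27019. Mir29b-2 (195037040 to 195037120) and Mir29c (195037547 to 195037634) lie 426 bases apart on the plus strand of chromosome 1. Both are exonic in the noncoding host transcript A330023F24Rik and run opposite to untranslated exon sequence of Cd46, a complement regulator. miR-29b-3p has the same sequence from both of its hairpins, so its count is the sum of both loci.

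Library totals ran from 690713 to 913285 counts in ConA+D8THC, from 322764 to 381274 in ConA+Vehicle and from 753887 to 1172389 in Vehicle. Marker miRNAs of several cell types shared the libraries, and none of the fixed markers was at 0 in a whole group. The pan-haematopoietic arms of miR-142a took 7.72% to 11.2% of counts in ConA+D8THC, 9.03% to 10.3% in ConA+Vehicle and 2.53% to 7.31% in Vehicle. The endothelial arms of miR-126a took 20.7% to 26.7%, 12.8% to 13.2% and 32.7% to 34.2% in the same groups, more than the miR-142a arms in all 6 libraries. The 6 hepatocyte markers took 5.18% to 7.15% in ConA+D8THC, 17.1% to 19.7% in ConA+Vehicle and 8.35% to 13.9% in Vehicle. Most abundant of the 6 in each group was miR-122-5p, and the 6 did not all move together. In the edgeR test described below, ConA+Vehicle against Vehicle had 4 called higher, 1 lower (miR-122-3p, log2 -1.19) and 1 not called (miR-122-5p, log2 0.62). Over all tested miRNAs 19.9% were called higher and 16.8% lower. miR-29 is expressed in many of these cell types, and in such bulk samples fewer cells of a type and less RNA per cell cannot be told apart.

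The 3 arms together formed an abundant part of the small RNA in every library. They took 3.19% (95% Wilson interval 3.15% to 3.22%) and 2.89% (2.85% to 2.93%) of counts in ConA+D8THC replicates 1 and 2. In ConA+Vehicle they took 3.11% (3.06% to 3.17%) and 3.20% (3.14% to 3.27%), and in Vehicle 2.34% (2.31% to 2.38%) and 2.14% (2.12% to 2.17%). All 4 libraries of ConA-treated mice lay above both Vehicle libraries, while the ConA+D8THC and ConA+Vehicle libraries overlapped. A lack of overlap with Vehicle was common, seen in scaled counts for 67.3% of tested miRNAs with ConA+Vehicle and 74.7% with ConA+D8THC. On library sizes scaled by TMM, edgeR's correction for composition, the family summed to 29224 ± 1168 CPM (counts scaled to a common library size) in ConA+D8THC, 31904 ± 3286 in ConA+Vehicle and 23203 ± 1663 in Vehicle (SD, n = 2). The sum over the members is given as values with no test, and the Wilson intervals cover counting error only.

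**Figure D1:**
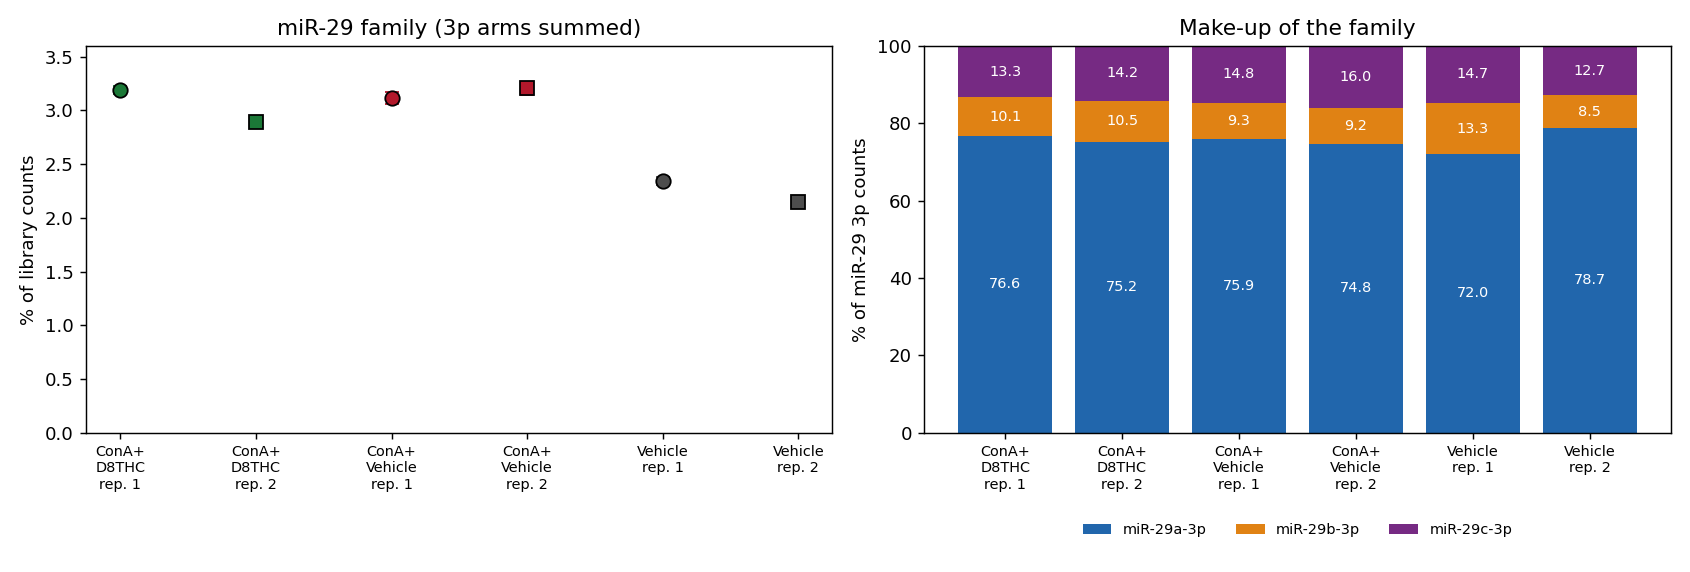
Left, share of library counts (%) taken by the 3 miR-29 3p arms in each of the 6 libraries, with 95% Wilson intervals that are mostly smaller than the points (circles, replicate 1; squares, replicate 2); ConA+D8THC and ConA+Vehicle libraries sit between 2.89% and 3.20% and Vehicle libraries at 2.14% and 2.34%. Right, the share of the family (%) held by each arm, with miR-29a-3p at 72.0% to 78.7% in every library.

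Within the family, miR-29a-3p was the dominant arm, followed by miR-29c-3p and then miR-29b-3p, an order that held in all 6 libraries. miR-29a-3p held 76.6% and 75.2% of the family's counts in ConA+D8THC, 75.9% and 74.8% in ConA+Vehicle, and 72.0% and 78.7% in Vehicle. It ranked 9 to 14 among all miRNAs of a library by count. The ratio of miR-29a-3p to miR-29c-3p counts was 5.75 and 5.29 in ConA+D8THC, 5.15 and 4.67 in ConA+Vehicle, and 4.89 and 6.17 in Vehicle. The ConA+D8THC ratios lay above the ConA+Vehicle ones, and the Vehicle range overlapped both. These ratios were not tested. The levels of 46.8% of tested miRNAs did not overlap between ConA+D8THC and ConA+Vehicle, a share that covers levels and not ratios. Reads with an error at base 10 would move the ratio. miR-29b-3p varied most in Vehicle, where it was 13.3% of the family in replicate 1 and 8.54% in replicate 2, against 10.1% and 10.5% in ConA+D8THC and 9.34% and 9.23% in ConA+Vehicle. The same Vehicle libraries differed in their pan-haematopoietic share, 7.31% in replicate 1 and 2.53% in replicate 2, and whether this bears on miR-29b-3p was not tested.

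The effect of ConA hepatitis was read from ConA+Vehicle against Vehicle. miR-29c-3p was 1.54-fold higher with ConA, while miR-29a-3p and miR-29b-3p did not pass the test. Of the 297 tested miRNAs 36.7% were called in this comparison, 19.9% higher and 16.8% lower, so 1 of 3 members called is close to that background. Groups that did not overlap were seen for 2 of 3 members and for 67.3% of tested miRNAs, and an unadjusted p under 0.05 for 2 of 3 members and 44.4% of tested miRNAs.

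miR-29c-3p, transcribed with Mir29b-2 from chromosome 1, was at 4363 and 5477 CPM in ConA+Vehicle, against 3588 and 2808 CPM in Vehicle. Both ConA+Vehicle libraries exceeded both Vehicle libraries. The change was log2 0.62 ± 0.22 (SE; 95% interval 0.14 to 1.10), with an adjusted p of 0.0448 in edgeR's quasi-likelihood test over 297 miRNAs. The call ended without ConA+Vehicle replicate 1 (adjusted p = 0.0627), ConA+Vehicle replicate 2 (0.355), Vehicle replicate 2 (0.202) or ConA+D8THC replicate 2 (0.0549), with RLE factors (0.0913), with no filter (0.274) and in DESeq2 (0.119). The endothelial miR-126a share of counts was 12.8% to 13.2% in ConA+Vehicle and 32.7% to 34.2% in Vehicle, and with both arms of miR-126a left out before scaling the change was log2 0.44 (adjusted p = 0.135). With the hepatocyte markers left out it was log2 0.69 (adjusted p = 0.0216). Over the 16 alternatives the adjusted p ran between 0.00424 and 0.355.

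miR-29a-3p, which makes up most of the family, was at 22454 and 25590 CPM in ConA+Vehicle, against 17545 and 17338 CPM in Vehicle. Both ConA+Vehicle libraries were higher than both Vehicle libraries, which lay close together. The change was log2 0.46 ± 0.20 (95% interval 0.01 to 0.91), and edgeR's adjusted p of 0.104 did not pass. Without the miR-126a arms it was log2 0.28 (adjusted p = 0.299).

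miR-29b-3p, the arm made from both loci, was at 2763 and 3161 CPM in ConA+Vehicle, against 3247 and 1882 CPM in Vehicle. The ConA+Vehicle libraries lay between the Vehicle libraries. The change was log2 0.21 ± 0.26 (95% interval -0.37 to 0.79; adjusted p = 0.597). Its direction rested on the choice of Vehicle library, with log2 0.64 without replicate 1 (adjusted p = 0.0568) and -0.12 without replicate 2 (0.802).

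**Figure D2:**
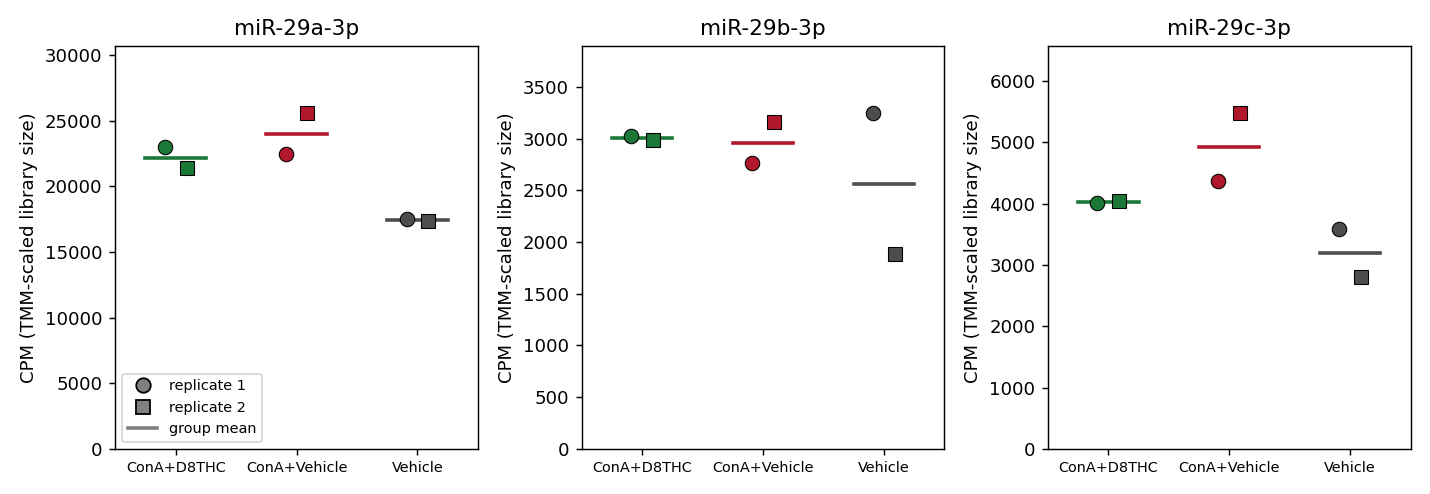
CPM on TMM-scaled library sizes (linear axes from 0) for each of the 3 arms in ConA+D8THC, ConA+Vehicle and Vehicle libraries; circles are replicate 1, squares replicate 2, and lines group means. miR-29a-3p and miR-29c-3p lie higher in both groups given ConA than in Vehicle, while the Vehicle libraries of miR-29b-3p, at 3247 and 1882 CPM, enclose the ConA+Vehicle ones.

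The members' median change was log2 0.46, against a median of 0.10 and an interquartile range of -0.60 to 0.83 over all tested miRNAs. miR-29c-3p stood at rank 96 of 297 from the highest change downward. Fitted as 1 feature, the family as a whole was at 1.39-fold of Vehicle in ConA+Vehicle, with no test.

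**Figure D3:**
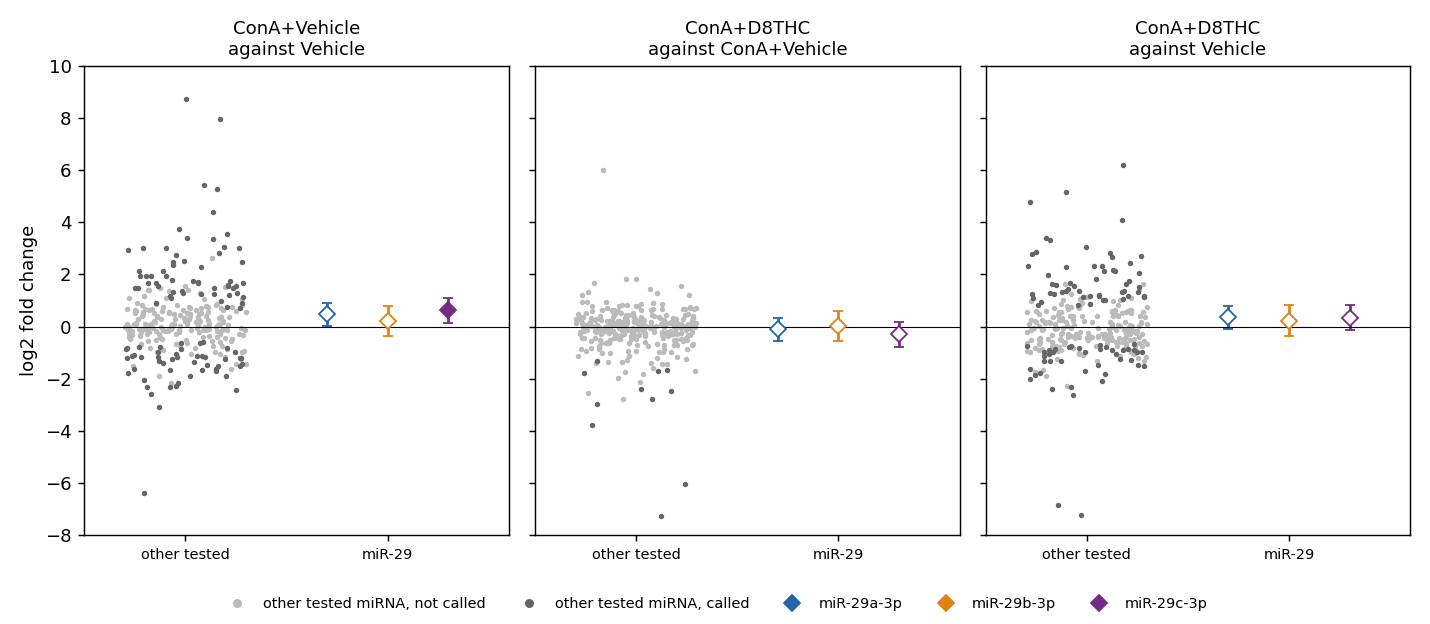
Log2 fold changes in the 3 comparisons for the 3 miR-29 arms (diamonds, with 95% intervals from the edgeR fit; filled where called at an adjusted p under 0.05) beside all other tested miRNAs (grey points, dark where called; sideways scatter has no meaning). The only filled diamond is miR-29c-3p in ConA+Vehicle against Vehicle, at log2 0.62, and it lies well inside the spread of the other miRNAs.

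**Figure D4:**
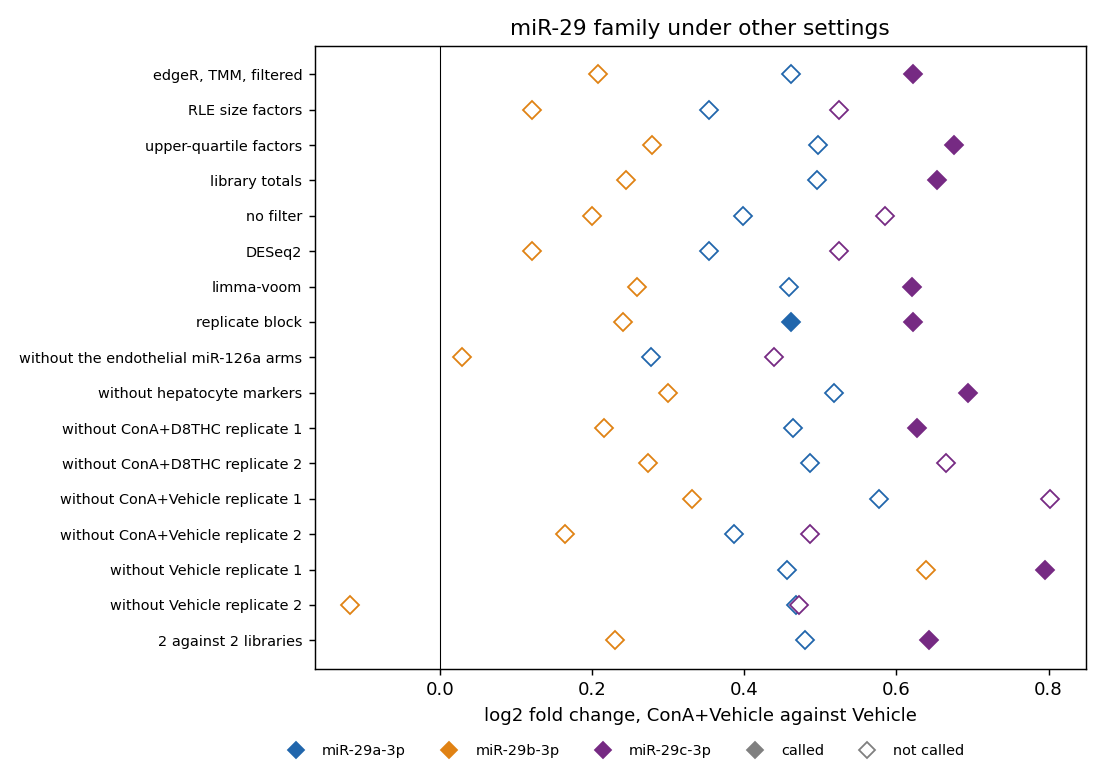
Log2 fold change of each arm in ConA+Vehicle against Vehicle under the main test (top row) and 16 other settings, filled where the adjusted p was under 0.05. miR-29c-3p ran from 0.44 to 0.80 and miR-29a-3p from 0.28 to 0.58, while miR-29b-3p ran from -0.12 to 0.64.

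The effect of D8THC in mice given ConA was read from ConA+D8THC against ConA+Vehicle. None of the 3 arms was called, by edgeR or in any of 16 alternatives, and none had an unadjusted p under 0.05. Over all tested miRNAs 3.70% were called and 18.9% had an unadjusted p under 0.05.

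miR-29a-3p was at 23024 and 21369 CPM in ConA+D8THC, against 22454 and 25590 CPM in ConA+Vehicle. The groups overlapped, with log2 -0.11 ± 0.20 (95% interval -0.57 to 0.34; adjusted p = 0.882). miR-29b-3p was at 3023 and 2991 CPM in ConA+D8THC, against 2763 and 3161 CPM in ConA+Vehicle. The ConA+D8THC libraries lay between the ConA+Vehicle ones, with log2 0.02 ± 0.26 (95% interval -0.56 to 0.60; adjusted p = 0.990). miR-29c-3p was at 4003 and 4039 CPM in ConA+D8THC, against 4363 and 5477 CPM in ConA+Vehicle. Both ConA+D8THC libraries were lower here, a lack of overlap that 46.8% of tested miRNAs had, and log2 -0.29 ± 0.22 did not pass (95% interval -0.77 to 0.19; adjusted p = 0.582). The interval of miR-29a-3p reached -0.57 and that of miR-29c-3p -0.77, each larger in size than the change measured for that arm with ConA, so falls of that size were not detected but lie within the intervals. miR-29c-3p was at log2 -0.06 without ConA+Vehicle replicate 2, -0.45 without ConA+Vehicle replicate 1 and -0.10 without the miR-126a arms, called in none of these. The signs of miR-29a-3p and miR-29b-3p turned under other settings.

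ConA+D8THC was also compared with Vehicle, to set mice given both agents against mice given neither; it shares its libraries with the other comparisons. All 3 arms had positive fold changes and none was called or had an unadjusted p under 0.05, while 32.7% of the 297 miRNAs were called and 45.8% had such a p. miR-29a-3p was at 23024 and 21369 CPM in ConA+D8THC, against 17545 and 17338 CPM in Vehicle (log2 0.35 ± 0.20, 95% interval -0.10 to 0.80, adjusted p = 0.200). miR-29c-3p was at 4003 and 4039 CPM, against 3588 and 2808 CPM in Vehicle (log2 0.33 ± 0.22, 95% interval -0.15 to 0.81, adjusted p = 0.244). miR-29c-3p was at log2 0.20 without Vehicle replicate 2 and 0.51 without Vehicle replicate 1, called in neither. The groups did not overlap for miR-29a-3p and miR-29c-3p, as for 74.7% of tested miRNAs. miR-29b-3p was at 3023 and 2991 CPM in ConA+D8THC, inside the Vehicle range of 1882 to 3247 CPM (log2 0.23 ± 0.26, 95% interval -0.35 to 0.81, adjusted p = 0.505). Without Vehicle replicate 1 it was called higher (log2 0.67, adjusted p = 0.0493), and without Vehicle replicate 2 it was at log2 -0.08 (0.854).

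The 5p arms of the same hairpins were read as a second output of each locus. They are shown with their seeds in capitals because, unlike the 3p arms, they tell the 2 miR-29b loci apart and have seeds of their own.
miR-29a-5p: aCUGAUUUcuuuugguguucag
miR-29b-1-5p: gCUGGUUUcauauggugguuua
miR-29b-2-5p: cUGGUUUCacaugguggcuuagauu
miR-29c-5p: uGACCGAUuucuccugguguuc
Their counts were low, between 1 and 51 a library, and the filter on low counts kept miR-29a-5p and miR-29c-5p for testing and dropped both miR-29b 5p arms. miR-29a-5p was at 18.6 and 17.1 CPM in ConA+D8THC, 22.4 and 26.5 CPM in ConA+Vehicle and 33.1 and 23.7 CPM in Vehicle. miR-29c-5p was at 31.0 and 35.6 CPM in ConA+D8THC, 27.4 and 39.7 CPM in ConA+Vehicle and 46.9 and 44.7 CPM in Vehicle. Neither was called in any comparison. In ConA+Vehicle against Vehicle, miR-29a-5p was at log2 -0.20 ± 0.44 (adjusted p = 0.787) and miR-29c-5p at log2 -0.47 ± 0.37 (0.369). In ConA+D8THC against ConA+Vehicle they were at log2 -0.44 ± 0.47 (adjusted p = 0.757) and 0.00 ± 0.38 (0.997). In ConA+D8THC against Vehicle they were at log2 -0.64 ± 0.40 (0.225) and -0.46 ± 0.33 (0.285).

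Relative to their 3p partners, the 5p arms of miR-29a and miR-29c took a smaller share in every library of mice given ConA than in either Vehicle library; this share was not tested. Of all reads from either arm of miR-29c, the 5p arm took 0.767% and 0.873% in ConA+D8THC, 0.625% and 0.720% in ConA+Vehicle and 1.29% and 1.57% in Vehicle. Both Vehicle libraries were above the other 4. Summed over the libraries of a group, this was 0.812% (exact 95% interval 0.612% to 1.06%) in ConA+D8THC, 0.671% (0.426% to 1.01%) in ConA+Vehicle and 1.44% (1.15% to 1.78%) in Vehicle. For miR-29a the 5p arm took 0.0803% (0.0542% to 0.115%) in ConA+D8THC, 0.101% (0.0591% to 0.162%) in ConA+Vehicle and 0.157% (0.117% to 0.206%) in Vehicle. There, too, each Vehicle library was above the other 4, but the intervals of ConA+Vehicle and Vehicle overlapped. The exact intervals of a group pool the reads of its 2 libraries and cover counting error only, not the spread between libraries. Among the 66 hairpins with both arms tested, 37.9% had a ratio of abundant to rare arm that was higher without overlap in ConA+Vehicle than in Vehicle, and 40.9% in ConA+D8THC against Vehicle, so such a shift was common among hairpins.

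For miR-29b, the 5p arm of the chromosome 6 hairpin gave 19 counts and that of the chromosome 1 hairpin 4 counts in ConA+D8THC, over both libraries. In ConA+Vehicle these were 4 and 5 counts, and in Vehicle 10 and 10. The share from Mir29b-1 was thus 82.6% (exact 95% interval 61.2% to 95.05%) in ConA+D8THC, 44.4% (13.7% to 78.8%) in ConA+Vehicle and 50% (27.2% to 72.8%) in Vehicle. The intervals overlapped at these counts, and they too pool reads and cover counting error only.

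**Figure D5:**
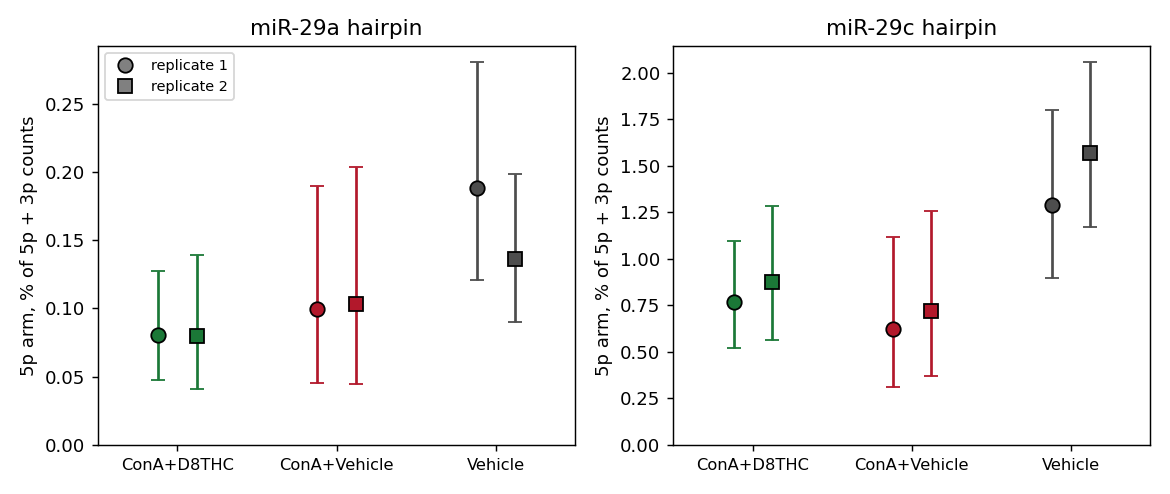
Share of the 5p arm in all 5p and 3p counts (%) of the miR-29a and miR-29c hairpins, per library, with exact 95% binomial intervals (circles, replicate 1; squares, replicate 2; axes start at 0 and differ in scale). The Vehicle libraries are highest for both hairpins, and the intervals cover counting error only. For miR-29a the Vehicle intervals overlap those of the other groups. For miR-29c that of Vehicle replicate 2 (from 1.17%) lies above those of replicate 1 of ConA+D8THC (to 1.09%) and ConA+Vehicle (to 1.11%). The other Vehicle intervals of miR-29c overlap those of the groups given ConA.

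miRNAs whose pattern over the 6 libraries was most like each member were ranked by the root mean square difference of log2 CPM, each miRNA centred on its own mean, among 291 others of at least 10 CPM. For miR-29a-3p the nearest were miR-132-5p (0.10), miR-16-5p (0.11), a member of the miR-15 and miR-16 family known for repressing cell cycle genes, and miR-378a-3p (0.11), from the Ppargc1b locus. The median over all was 0.53. For miR-29c-3p they were miR-185-5p (0.13), miR-29a-3p (0.14) and miR-132-5p (0.14), with a median of 0.56. For miR-29b-3p they were miR-101a-3p (0.13), miR-301a-3p (0.15) and miR-872-5p (0.16), with a median of 0.55. miR-29c-3p stood at rank 7 from miR-29a-3p and at rank 15 from miR-29b-3p, whereas miR-29b-3p stood at rank 30 from miR-29a-3p. miR-29b-3p has a hairpin near that of each of the others, and its Vehicle libraries lay far apart, at 3247 and 1882 CPM.

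Other miRNAs known to act on the same processes were counted from lists, which were chosen with earlier results of these data known. On a list of 9 miRNAs of T helper 1 and interferon-gamma control, 3 rose and 3 fell in ConA+Vehicle against Vehicle, with a median of log2 -0.44 against 0.10 over all, of which 19.9% were called higher and 16.8% lower. miR-155-5p, which favours T helper 1 responses, was at log2 2.76 ± 0.25 (adjusted p = 5.32e-05), the abundant miR-21a-5p at 1.54 ± 0.38 (0.0123) and miR-9-5p at 1.57 ± 0.52 (0.0353). Those that fell were miR-125b-5p (log2 -1.09 ± 0.21, adjusted p = 0.00211), known in human naive T cells for holding back effector genes, miR-24-3p (-0.86 ± 0.22, 0.0114) and miR-27a-3p (-0.63 ± 0.20, 0.0274). miR-24 and miR-27 limit T helper 2 cytokines in mice. miR-24-3p was at 4511 ± 341 CPM in ConA+Vehicle and 8169 ± 1885 CPM in Vehicle (SD, n = 2). The also abundant miR-146a-5p (log2 -0.55, adjusted p = 0.0856), a brake on NF-kappaB signalling, and miR-27b-3p (log2 -0.24, adjusted p = 0.393) did not pass. The 4 myeloid markers together took 2.76% to 2.92% of counts in ConA+Vehicle and 0.348% to 0.365% in Vehicle, a sum carried by miR-223-3p (log2 3.02, adjusted p = 4.43e-05). Of the 4, 2 were called higher and 2 lower, with miR-511-3p at log2 -3.10 (adjusted p = 0.000638) and miR-511-5p at -1.88 (0.0472), and their part in the list's changes was not tested.

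On a list of 14 miRNAs of matrix and liver fibrosis control, 3 rose and 3 fell in the same comparison, with a median of log2 -0.11. These counts are near the 19.9% called higher and 16.8% called lower over all 297 miRNAs. Besides miR-21a-5p, miR-19b-3p (log2 1.78 ± 0.31, adjusted p = 0.00134) of the miR-17 to miR-92 cluster and miR-221-3p (log2 0.76 ± 0.23, adjusted p = 0.0217) rose. miR-221-3p was at 1190 ± 171 CPM in ConA+Vehicle and 703 ± 34.5 CPM in Vehicle. miR-199a-3p (log2 -1.15 ± 0.24, adjusted p = 0.00391) and miR-199a-5p (log2 -1.18 ± 0.27, 0.00589), arms of a stellate cell and fibroblast miRNA, fell, and the 3p arm has the same sequence in the miR-199b hairpin. miR-30c-5p (log2 -1.26 ± 0.21, adjusted p = 0.000935), which represses connective tissue growth factor, fell too. Stellate cell and fibroblast markers, among them these arms of miR-199a, took 0.740% to 1.29% of counts in ConA+Vehicle and 1.28% to 1.32% in Vehicle, and their part was not tested. Of the 5 such markers tested, 2 were called lower, these arms of miR-199a, and 3 were not called. Those 3 were miR-143-3p (log2 0.42), the most abundant of the markers in ConA+Vehicle, miR-145a-5p (log2 -0.29) and miR-214-3p (log2 -1.24). miR-30a-5p (log2 -0.19) and miR-101a-3p (log2 -0.03), at 5751 ± 947 CPM in ConA+Vehicle and 5867 ± 2477 CPM in Vehicle, did not pass. In ConA+D8THC against ConA+Vehicle, edgeR called 0 of the 9 and 0 of the 14, beside 3.70% of all tested miRNAs. An unadjusted p under 0.05 was seen for 1 and 2 of them, beside 18.9% of all. DESeq2 called 0 and 1 of them, and 17 of all 297. The lists had medians of log2 0.11 and -0.05 against -0.04 over all. In ConA+D8THC against Vehicle, 3 of the 9 were higher and 1 lower, and 4 of the 14 were higher and 2 lower, beside 18.5% and 14.1% of all tested miRNAs.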

How the data were processed

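Per the labels, small RNA was isolated with a miRNeasy kit from dissociated livers' immune cells, and libraries were made with a QIAseq miRNA kit and sequenced on a NextSeq 550. The authors deposited raw counts per mature miRNA, made in QIAGEN's GeneGlobe portal; the build mm10 is from the submitters' processing notes. The sources used here do not give the aligner, the miRNA release, the use of molecular barcodes, or the treatment of reads with more than 1 match.

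The tests used edgeR 4.0.16 in R 4.3.3. filterByExpr kept 297 of the 806 miRNAs with any count, holding at least 99.89% of each library. After TMM scaling, all 6 libraries entered 1 robust glmQLFit with a mean per group, leaving 3 residual degrees of freedom, and glmQLFTest compared the groups. Benjamini-Hochberg adjustment ran over the 297 miRNAs of a comparison, and calls were made below an adjusted p of 0.05. Approximate standard errors divide the size of the log2 change by the root of F, and 95% intervals use the test's degrees of freedom. DESeq2 1.42.0, limma-voom (limma 3.58.1) and other settings were alternatives, and the procedure was tested on simulated data. Sequences are from RefSeq GRCm38.p6 and annotation from GENCODE M21.

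The members and lists were chosen with earlier results of these data known. Named miRNAs are the members, their 5p arms, the 3 nearest in pattern to each, and, of the 2 lists, the 4 most abundant and those called in ConA+Vehicle against Vehicle. Fixed markers of cell types are named too, where their shares or changes are given. The nearest were taken from log2 CPM with a prior count of 2, and arm ratios of all hairpins from CPM with 0.5 added.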

Additional observations from a re-analysis of the deposited data

How the results depend on the processing

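Of the members' changes, that of miR-29c-3p with ConA kept its direction in all 16 alternatives and its call in 8. It was not called with RLE factors (log2 0.52, adjusted p = 0.0913), no filter (0.58, 0.274), DESeq2 (0.52, 0.119) or without the endothelial miR-126a arms (0.44, 0.135), and ran from 0.47 to 0.80 with single libraries left out. RLE factors moved the median of all miRNAs from 0.10 to -0.01, and relative to it miR-29c-3p was at 0.53, against 0.52 with TMM. With the replicate block, which takes the labels' replicate numbers as a term, miR-29a-3p was called with ConA (log2 0.46, adjusted p = 0.0372). The labels state no pairing, and the numbers were not taken as pairs. Deviations from the group mean correlated at 0.20, 0.24 and 0.07 between groups, which does not settle whether the libraries pair.

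Changes that turned sign and were called in no setting were miR-29b-3p with ConA against Vehicle (-0.12 to 0.64 with single libraries left out), and in ConA+D8THC against ConA+Vehicle miR-29a-3p (0.081 without the miR-126a arms; -0.21 to 0.039 with libraries left out) and miR-29b-3p (-0.089 with upper-quartile factors; -0.077 to 0.18 with libraries left out). miR-29b-3p in ConA+D8THC against Vehicle also turned sign, at -0.075 to 0.67 with libraries left out, and was called once, without Vehicle replicate 1. The cause was not tested.

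miRNAs called in ConA+Vehicle against Vehicle numbered 109, and 67 to 129 with single libraries left out. In ConA+D8THC against ConA+Vehicle they numbered 11, against 17 with upper-quartile factors, 19 with no filter, 17 in DESeq2, 44 with the replicate block, 17 without the miR-126a arms, 18 with 2 against 2 libraries, 26 at an adjusted p under 0.1, and 8 to 40 with libraries left out. In ConA+D8THC against Vehicle they numbered 97, and 63 to 112 with libraries left out. Family sums moved by less than 1 SD with library totals or as 1 feature. Depth limits the 5p arms, at 1 to 51 counts a library.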
